A study of Mus musculus with 2 samples.

Results

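Glycolysis and the transcriptional response to low oxygen were examined through 33 named genes in RNA from mouse embryonic fibroblasts (MEFs) labelled as lacking the Lats2 kinase (KO) and as wild type (WT). The genes were chosen by name: 21 encode glucose transporters, glycolytic enzymes and their regulators, and 12 belong to the hypoxia response. They were read from every non-control probe whose gene name in the array files was one of the 33, out of 27579 gene names with a usable reading on both arrays. These names had 58 probes, of which 56 were usable on both arrays, and a single usable probe stood for 19 of the genes. Where a gene had several, the probe with the highest mean signal was taken.

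The RNAs came from primary MEFs, connective tissue cells grown from embryos, of strain C57BL/6J in both genotypes. One was labelled WT and the other Lats2 knockout (spelled both LATS2-/- and LAT2-/- in the labels). No treatment, and no culture in low oxygen, is named in the labels, and the methods describe growth in serum-containing medium under air with added CO2. Agilent arrays covering the mouse genome received both RNAs at once, on 1 array with the KO RNA in the red dye Cy5 and the WT RNA in the green dye Cy3, and on the other with the dyes exchanged. The labels name no separate cultures, embryo stage, sex, passage or pooling of embryos, and the 2 arrays were therefore counted as 1 replicate per genotype, hybridised in both dye orientations. Spread between the arrays is then hybridisation and dye error only, and no test of the genotypes was possible. The study's methods cite an earlier publication for the Lats2-deficient MEFs, and its text speaks of several lines without the labels saying which one was hybridised here.

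Glycolysis splits glucose into pyruvate, which fibroblasts in culture largely reduce to lactate. When oxygen is short, prolyl hydroxylases of the Egln family no longer mark the hypoxia-inducible factor (HIF) subunit Hif1a for destruction, and HIF then raises transcription of glucose transporters, nearly every glycolytic enzyme, and genes for blood vessel growth, pH control, cell survival and collagen modification. Some of these genes, such as Ddit4, also answer to other stresses, hormones and nutrients, and Hif1a itself is regulated mainly through the stability of its protein, which an RNA array does not measure.

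A check of the labels came first. Lats2 had 4 probes, and 3 of them, including the brightest, gave more signal in the RNA labelled KO. On the brightest the signal was 7739 in the RNA labelled KO against 5391 in the RNA labelled WT with KO in Cy5, and 8344 against 5499 with KO in Cy3, a mean log2 ratio of 0.56. The fourth probe was lower in the RNA labelled KO, with log2 ratios of -0.18 and -0.51. Since which part of the gene was deleted is not stated in the labels, these probes do not settle the genotype, and the RNAs are called by their labels throughout. Of the fibroblast markers, 7 were measured and all 7 passed the background flag on both arrays in 1 RNA or both, whereas no epithelial, endothelial or skeletal muscle marker did. Of the macrophage and blood markers 3 passed it, of the adipocyte markers 2, of the erythroid markers 1 and of the neural markers 1. Raw signal medians lay between 58.2 and 98.5 units over the 4 channels, no spot was saturated, and outlier flags removed under 1% of the spots of each array.

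Each ratio below is log2 of the RNA labelled KO over the RNA labelled WT, after background correction and normalisation within the array, and each signal is in arbitrary units on the same normalised scale, which includes an offset of 50. A gene was called when its ratio passed a fold threshold, with the same sign, on both arrays, and its signal was well above background, by the scanner software's flag, on both arrays in the RNA it was higher in. The thresholds were 2-fold, used in the study's methods for Lats2 KO MEFs, and 1.4-fold (0.49 in log2), used there for another array experiment. Signals of different genes were not set against each other; where a list's signals are summed, the sum is compared between the RNAs only.

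All 33 genes were read well above background on both arrays in at least 1 RNA, and 32 of them in both RNAs. At 2-fold, 0 of the 33 were higher and 1, the stress-induced mTOR inhibitor Ddit4, was lower in the RNA labelled KO. Over the 15877 genes well above background, 2.95% were called higher and 2.61% lower at this threshold. At 1.4-fold, 4 genes were higher (Hk2, Pfkfb4, Eno2 and Adm) and 2 were lower (Ddit4 and Ankrd37), which is 12.1% and 6.06% of the 33 against 9.35% and 9.50% of all genes above background. The number of genes called in each direction was thus near that of the array as a whole. In RNA from whole cultures, fewer cells expressing a gene and less RNA per cell cannot be told apart. With median centring of each array in place of loess, an alternative that leaves the signal-dependent dye effect in the ratios, 0 of the 33 were called in either direction at either threshold, and over all genes above background 3.38% were called higher and 2.75% lower at 1.4-fold. The means of both arrays, in which a dye effect shared by the arrays cancels, moved little under it. Hk2 was then at 0.98, Pfkfb4 at 0.85, Eno2 at 0.92, Adm at 0.91, Ddit4 at -1.55 and Ankrd37 at -0.79. Because of that cancelling, the steady means do not bear on the calls, which need each array.

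The genes differed in direction. Their median log2 ratio was 0.12, against a median of -0.00 over all genes above background. It was 0.12 over the 21 glycolysis genes (0.10 on the first array and 0.14 on the dye-exchanged one) and 0.06 over the 12 hypoxia response genes, where the arrays gave 0.16 and -0.05, values of opposite sign. Of the 33, 15 were higher and 11 lower on both arrays, and 7 had opposite signs on them. Most differences were small: 24 of the 33 lay within 1.4-fold on the mean of both arrays, and of the 9 beyond it 5 were higher and 4 lower. The arrays differed more for these genes than for the rest. A single value varied between arrays with an SD of 0.22 over the 33 and of 0.14 over all genes above background. For the 7 glycolysis genes in the brightest range of the array the SD was 0.27, against 0.17 for the 479 genes of that range. That 0.27 came mainly from Ldha, at 0.58, and Pgam1, at 0.31, while the others ran from 0.01 (Aldoa) to 0.19 (Gapdh).

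**Figure D1:**
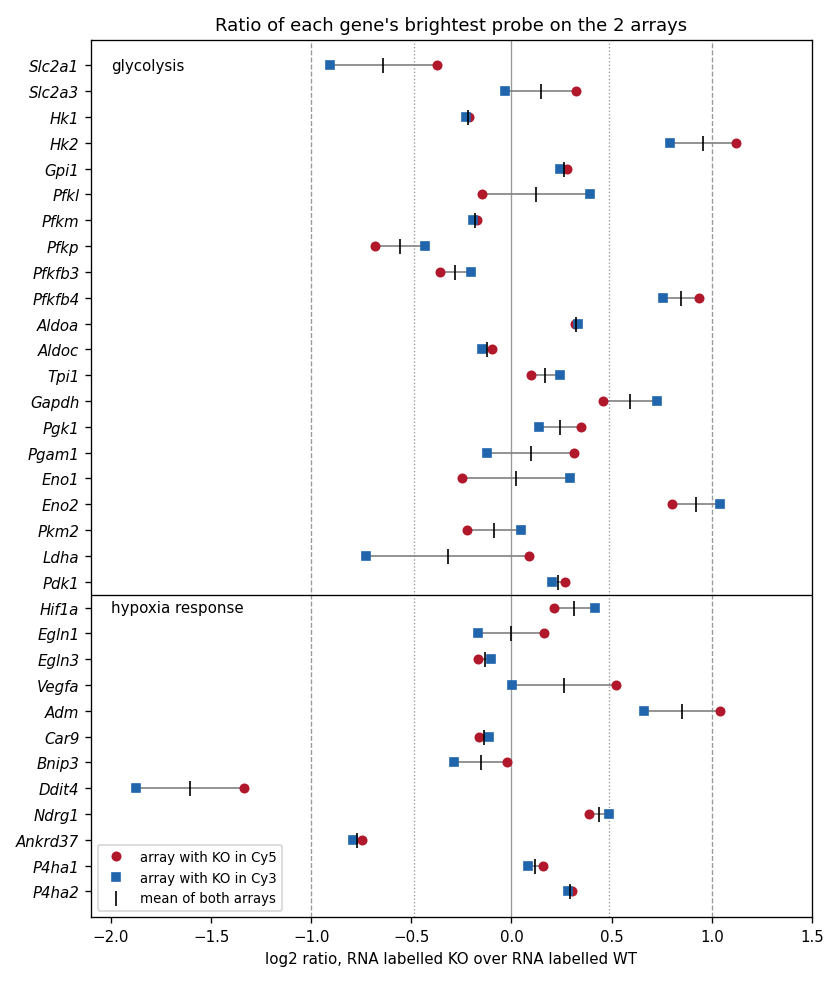
Log2 ratio of the RNA labelled KO over the RNA labelled WT for the brightest probe of each of the 33 genes (x axis), with circles for the array with KO in Cy5, squares for the array with KO in Cy3 and a black tick for their mean; dotted lines mark 1.4-fold and dashed lines 2-fold. Ddit4 lies beyond 2-fold on both arrays, and Ldha, Pfkl and Eno1 have their 2 arrays on opposite sides of 0.

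The glucose transporters, which let glucose into the cell, came first in the pathway. Slc2a1 (GLUT1), the main transporter of cultured cells, gave 2878 in the RNA labelled KO against 3730 with KO in Cy5, and 2304 against 4321 with KO in Cy3. The RNA labelled KO was the lower on both arrays, at log2 ratios of -0.37 and -0.91, and since the first of these was within 1.4-fold the gene was not called. Slc2a3 (GLUT3), a transporter of high affinity best known from neurons, was near the detection limit, with signals of 68.3 to 85.3 and ratios of 0.32 and -0.03 (mean 0.15). The scanner software's own ratio gave it a mean of 1.11, as did the deposited table. In the RNA labelled WT it passed the background flag on only 1 array.

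Hexokinases trap glucose in the cell as glucose phosphate, and of the pair measured only Hk2 was called. Hk2, the isoform that HIF and growth signals induce, gave 2191 in the RNA labelled KO and 1006 in the RNA labelled WT with KO in Cy5, and 2056 and 1186 with KO in Cy3. Both values of the RNA labelled KO lay above both of the RNA labelled WT, and the log2 ratios were 1.12 and 0.79 (mean 0.96, 1.94-fold). Hk1, the widely expressed isoform, went the other way by a small amount, at -0.21 and -0.23. Its other 5 usable probes gave means between -0.10 and 0.07, of which 1 was not above background.

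In the middle of the preparatory phase no gene was called. Gpi1, glucose phosphate isomerase, was spotted 10 times per array and gave 0.28 and 0.24. Phosphofructokinase, which commits sugar to glycolysis, is encoded by 3 genes, and they differed from each other. The platelet isoform Pfkp was lower in the RNA labelled KO, with signals of 1031 against 1656 and of 1178 against 1592, and ratios of -0.68 and -0.43. It missed the 1.4-fold call on the second array, and its other probes gave -0.37 and 0.18, so the probes of this gene disagreed in sign. The muscle isoform Pfkm gave -0.17 and -0.19, and the liver isoform Pfkl gave -0.15 and 0.39, opposite signs on the arrays.

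Phosphofructokinase is controlled by bifunctional enzymes that make and break its sugar phosphate activator, and these differed in direction. Pfkfb4, a strongly HIF-inducible form, gave 1307 in the RNA labelled KO against 684 with KO in Cy5, and 1318 against 779 with KO in Cy3. The RNA labelled KO was higher on both arrays (0.94 and 0.76, 1.80-fold on the mean). Pfkfb3, the form with the highest kinase activity relative to phosphatase and also a HIF target, was instead lower by a little, at -0.36 and -0.20, below the threshold.

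Aldolase cleaves the doubly phosphorylated sugar, and triose phosphate isomerase interconverts the products. Aldoa, the form of muscle and most cultured cells, was higher by nearly the same amount on both arrays (0.32 and 0.33), and Tpi1 gave 0.10 and 0.24. Aldoc, the brain form, had signals of only 81.6 to 99.7 and ratios of -0.10 and -0.15. None of these was called.

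**Figure D2:**
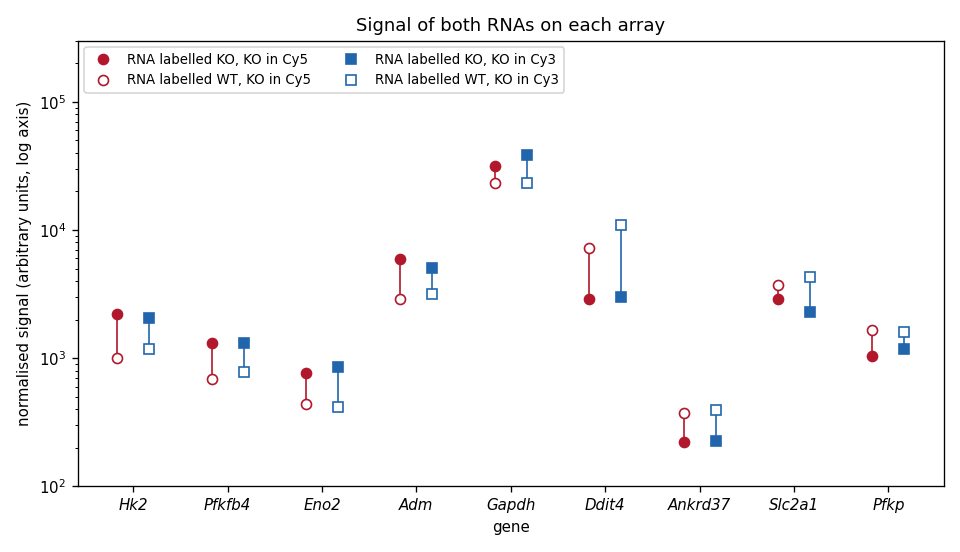
Normalised signal (y axis, arbitrary units, log scale) of 9 genes in the RNA labelled KO (filled) and the RNA labelled WT (open) on the array with KO in Cy5 (circles) and the array with KO in Cy3 (squares); signals compare within a gene only. In Hk2, Pfkfb4, Eno2, Adm and Gapdh both filled points lie above both open points, and in Ddit4, Ankrd37, Slc2a1 and Pfkp both lie below.

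In the payoff phase, which yields ATP and pyruvate, Gapdh and Pgk1 had ratios above 0 on both arrays without being called. Gapdh is a dehydrogenase often used as a reference gene, and was so used in the study's quantitative PCR of Hoxb genes in MEFs. It gave 31815 against 23212 and 38278 against 23163. Its ratios of 0.45 and 0.72 (mean 0.59) missed the call because the first was just within 1.4-fold. Pgk1, phosphoglycerate kinase, was spotted 10 times per array and gave 0.35 and 0.14, and the mutase Pgam1 gave 0.31 and -0.12.

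Enolase makes phosphoenolpyruvate, and 3 isoforms were measured. Eno2, the neuronal form that hypoxia also induces in other cells, gave 764 in the RNA labelled KO against 438 with KO in Cy5, and 856 against 416 with KO in Cy3. The RNA labelled KO was higher on both arrays, at 0.80 and 1.04 (1.89-fold on the mean), and the second probe of the gene gave 0.88. Eno1, the common form, had ratios of -0.25 and 0.29 and a mean of 0.02. The muscle form Eno3, which is not among the 33, was called higher at 1.4-fold (mean 1.12, 2.17-fold).

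The last steps are pyruvate kinase and lactate dehydrogenase. The brightest Pkm2 probe, on chromosome 9 at 59477106 to 59477165 (mm8), gave -0.22 and 0.05, and the probe next to it, starting at 59476958, gave -0.51 and -0.03. A further probe of the same gene name, matched by the array design to the cDNA AK083076 and lying at 59470599 to 59470658, was well above background in both RNAs and gave -1.51 and -1.32. It was the only probe among the 56 other than that of Ddit4 to pass 2-fold on both arrays, and which transcript it reads was not analysed here. Ldha, which makes lactate, had the widest gap between arrays of the 33, with signals of 45190 against 42467 (0.09) with KO in Cy5 and 41364 against 68507 (-0.73) with KO in Cy3. Its second probe gave -0.32 and -0.19. Pdk1, the HIF-induced kinase that keeps pyruvate out of the mitochondrion, gave 0.27 and 0.20, and its second probe gave a mean of 0.50.

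**Figure D3:**
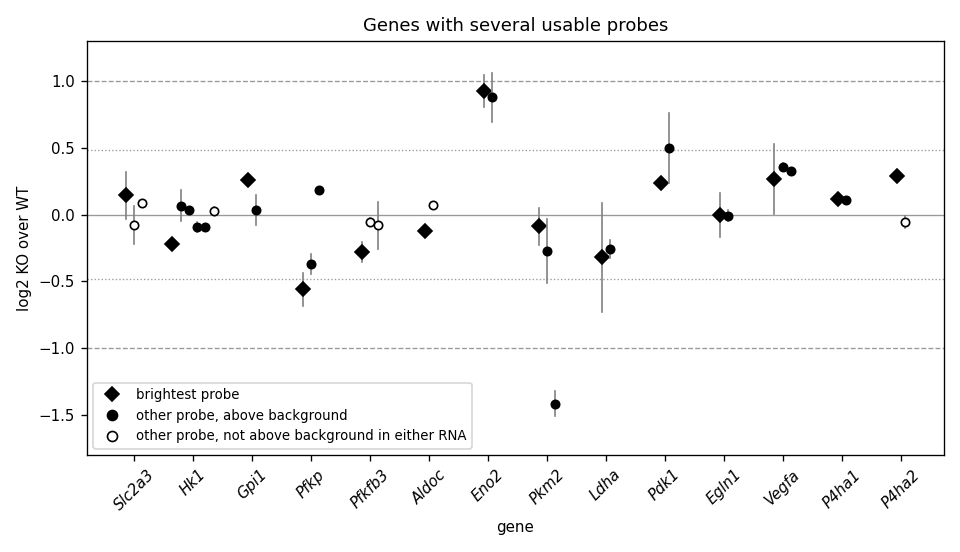
Mean log2 ratio of the RNA labelled KO over the RNA labelled WT (y axis) for every usable probe of the 14 genes with several (x axis); diamonds mark the brightest probe, open circles probes not above background in either RNA, and grey bars join the 2 arrays. The outlying Pkm2 probe, at -1.41, stands below the other probes of its gene, and both Eno2 probes lie together near 0.9.

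Among the genes of oxygen sensing, none was called. Hif1a, the regulated HIF subunit, gave 1457 against 1256 and 1522 against 1141, so the RNA labelled KO was slightly higher on both arrays (0.21 and 0.42). The prolyl hydroxylase Egln1 (PHD2), which sets HIF levels in normal oxygen, gave 0.16 and -0.17. Egln3 (PHD3), both a hydroxylase and a HIF target, gave -0.17 and -0.10.

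Of the secreted factors, Adm was called and Vegfa was not. Adm encodes adrenomedullin, a vasodilator peptide. Its signals were 5934 in the RNA labelled KO and 2888 in the RNA labelled WT with KO in Cy5, and 5031 and 3177 with KO in Cy3. The ratios were 1.04 and 0.66 (1.80-fold on the mean), with the RNA labelled KO higher on both arrays. Vegfa, the endothelial growth factor, gave 0.52 on the first array and 0.00 on the second with its brightest probe, and means of 0.36 and 0.32 with the others, on each of which both arrays were higher in the RNA labelled KO.

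The stress and survival genes held both genes called lower. Ddit4 (REDD1), which restrains mTOR when oxygen, energy or hormones signal stress, gave 2869 in the RNA labelled KO against 7252 in the RNA labelled WT with KO in Cy5, and 3005 against 11010 with KO in Cy3. The RNA labelled KO held 32.9% of the WT level on the mean of log ratios, at -1.34 and -1.87. Ankrd37, a small ankyrin-repeat protein and a HIF target, gave 223 against 374 and 226 against 391 (-0.75 and -0.79, 58.7% of the WT level). These genes have 1 usable probe each, on chromosome 10 at 59345095 to 59345154 for Ddit4 and on chromosome 8 at 47495867 to 47495926 for Ankrd37 (mm8).

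The other HIF targets of this class were not called. Ndrg1, a growth-arrest and hypoxia marker, was higher in the RNA labelled KO at 0.39 and 0.49, and missed the call on the first array. Bnip3, a mitophagy receptor that is among the most widely used HIF targets, gave -0.02 and -0.29. Car9, the cell surface carbonic anhydrase that is nearly silent in normal oxygen, had signals of only 98.7 to 112.9 and ratios of -0.16 and -0.11.

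The collagen prolyl hydroxylase subunits, which stabilise collagen helices and are induced by HIF in fibroblasts, were not called. P4ha1 gave 0.16 and 0.08, a mean of 0.12 where the spread between arrays gave such a mean an SD of 0.10. P4ha2 gave 0.30 and 0.28. Beside them, Col1a1, a substrate of these enzymes and a fibroblast marker, was called lower at -0.61 and -0.52. The other collagens among the fibroblast markers were not called, with Col3a1 at -0.42 and -0.57 and Col1a2 at 0.04 and -0.04.

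**Figure D4:**
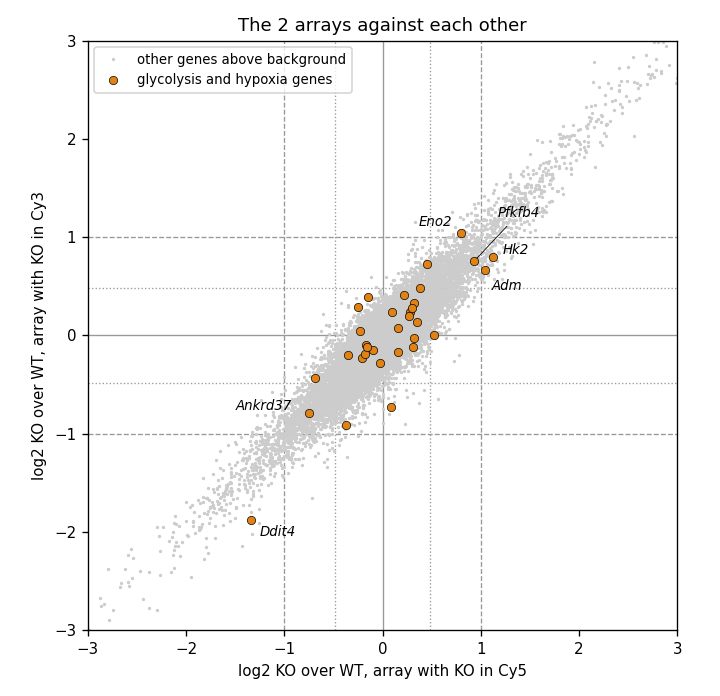
Log2 ratio of the RNA labelled KO over the RNA labelled WT on the array with KO in Cy5 (x axis) against the array with KO in Cy3 (y axis), for the 33 genes (orange) and the other genes well above background (grey; 69 genes fall outside the axes). The 6 called genes are named, dotted and dashed lines mark 1.4-fold and 2-fold, and most of the 33 lie inside the dotted lines on both axes.

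Promoter sequence was looked at because HIF binds DNA at the letters ACGTG, a feature that the choice of genes by name did not use directly, although many were known HIF targets. RefSeq promoter windows (GRCm38.p6) were matched for 31 of the 33 genes, all except Slc2a3 and Ndrg1. In the 250 bases before the transcription start, ACGTG occurred on either strand in 22 of the 45 windows of these genes (48.9%) and in 5444 of 32851 windows of all genes (16.6%). Windows of one gene can overlap, and a match to 5 letters is not a bound site. With GCGTG also allowed the shares were 80.0% and 38.6%. CACGTG, which contains ACGTG on both strands and is also the E-box of Myc and other factors, occurred in 5 of the 45 windows and in 6.02% of all.

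The 250 bases before the start of the 6 called genes are given because these were the readings past 1.4-fold, so that the letters can be set beside their direction. Capitals mark ACGTG or, for the other strand, CACGT, and each sequence is written 5′ to 3′ on the strand of the gene. The first is Hk2, on the minus strand at chr6:82774455-82774704. Pfkfb4 is on the plus strand at chr9:108991652-108991901, Eno2 on the minus strand at chr6:124769674-124769923 and Adm on the plus strand at chr7:110627407-110627656. Ddit4 is on the minus strand at chr10:59951771-59952020 and Ankrd37 on the minus strand at chr8:45999851-46000100.
Hk2: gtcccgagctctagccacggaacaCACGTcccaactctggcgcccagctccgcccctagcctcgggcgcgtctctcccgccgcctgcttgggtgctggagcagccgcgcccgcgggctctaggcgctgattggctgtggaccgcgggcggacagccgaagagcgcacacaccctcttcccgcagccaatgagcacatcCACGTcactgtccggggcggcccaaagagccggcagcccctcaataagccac
Pfkfb4: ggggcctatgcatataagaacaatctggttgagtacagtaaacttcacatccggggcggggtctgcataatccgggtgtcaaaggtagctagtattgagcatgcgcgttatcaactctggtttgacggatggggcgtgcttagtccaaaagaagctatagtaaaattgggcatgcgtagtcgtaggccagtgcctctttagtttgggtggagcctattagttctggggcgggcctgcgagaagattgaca
Eno2: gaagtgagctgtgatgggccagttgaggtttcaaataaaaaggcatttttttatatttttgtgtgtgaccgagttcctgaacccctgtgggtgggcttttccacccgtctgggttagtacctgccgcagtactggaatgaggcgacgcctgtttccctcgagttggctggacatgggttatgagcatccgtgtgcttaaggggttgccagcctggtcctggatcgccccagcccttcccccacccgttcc
Adm: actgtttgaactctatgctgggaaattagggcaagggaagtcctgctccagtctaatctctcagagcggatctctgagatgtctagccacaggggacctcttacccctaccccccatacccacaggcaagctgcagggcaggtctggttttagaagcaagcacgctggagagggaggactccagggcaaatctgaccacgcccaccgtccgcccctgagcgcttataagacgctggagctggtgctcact
Ddit4: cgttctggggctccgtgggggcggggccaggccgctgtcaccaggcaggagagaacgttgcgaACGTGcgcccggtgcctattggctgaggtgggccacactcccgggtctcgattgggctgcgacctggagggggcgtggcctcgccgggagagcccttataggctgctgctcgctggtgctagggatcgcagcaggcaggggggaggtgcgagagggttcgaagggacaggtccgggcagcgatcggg
Ankrd37: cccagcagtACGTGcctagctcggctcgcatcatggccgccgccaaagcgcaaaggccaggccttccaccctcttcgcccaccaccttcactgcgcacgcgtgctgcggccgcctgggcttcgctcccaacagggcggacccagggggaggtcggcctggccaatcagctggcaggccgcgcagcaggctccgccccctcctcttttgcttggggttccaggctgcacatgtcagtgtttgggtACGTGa

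Hk2 held 2 matches to ACGTG and was higher, whereas Pfkfb4, Eno2 and Adm held none of ACGTG in this window and were higher too. Ddit4 held 1 and Ankrd37 2, and both were lower. The capitals leave out the wider form GCGTG. On 1 strand or the other it occurs in the windows of Pfkfb4, Adm, Ddit4 and Ankrd37, and not in those of Hk2 and Eno2. Among the genes that were not called, Ldha held 5 in 1 of its 2 windows and Hif1a held 3. Both of these windows contain CACGTG, which was counted as 2 matches because it reads ACGTG on each strand, so they hold fewer separate sites than matches.

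The rest of the HIF system was read from a further list. Of 17 HIF regulators measured, 16 were above background. At 2-fold, 1 was called higher and 0 lower (all genes, 2.95% and 2.61%), and at 1.4-fold 1 was higher and 1 lower (9.35% and 9.50%). The gene called higher was Cited2, a HIF target that competes with HIF for the coactivators p300 and CBP. Its signals were 16363 against 6431 and 15872 against 7663, and its ratios 1.35 and 1.05. CBP itself (Crebbp) was lower at 1.4-fold on its brightest probe, matched to the cDNA AK048818, at -0.72 and -0.50, while its other probes gave means of -0.14 and -0.08. Arnt, the constant partner of the HIF subunits, gave -0.33 and -0.28 on its brightest probe, and means between -0.08 and 0.04 on its others. Epas1 (HIF2A), with a mean of -0.05, was not above background in either RNA. Vhlh, the ubiquitin ligase subunit that removes HIF, gave -0.14 and -0.22. The asparaginyl hydroxylase Hif1an gave -0.05 and 0.04, the prolyl hydroxylase Egln2 gave -0.19 and -0.04, and Hif3a gave 0.09 and 0.04.

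A further list held other genes known to be hypoxia-inducible. Of 43 measured, 36 were above background. At 2-fold, 6 were higher and 0 lower (all genes, 2.95% and 2.61%), and at 1.4-fold 10 were higher and 2 lower (9.35% and 9.50%), with a median of 0.20 over those above background. The lysyl oxidase Loxl2, which crosslinks collagen, gave 2.01 and 1.90. Angptl4, an inhibitor of lipoprotein lipase, gave 1.57 and 1.35. The phosphoglucomutase with the array name Pgm2, whose probe is matched to the gene that RefSeq names Pgm1, gave 1.39 and 1.29. Rragd, a GTPase of amino acid signalling, gave 1.14 and 1.16, and Ier3, an early response gene, gave 1.24 and 1.03. Several of these genes answer to pathways other than HIF. This and the other further lists were chosen with earlier results of these data known, so their counts beside the array's shares are descriptive only.

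Other genes of glycolysis and pyruvate use included the widest ratios of the metabolic lists. Of 28 measured, 22 were above background, with a median of 0.06. At 2-fold, 3 were higher and 1 lower (all genes, 2.95% and 2.61%), and at 1.4-fold 4 were higher and 2 lower (9.35% and 9.50%). Pdk4, a pyruvate dehydrogenase kinase of fasting and fat oxidation, gave 1971 against 283 and 1893 against 239 (2.80 and 2.98), beside 0.27 and 0.20 for its HIF-induced relative Pdk1. Ldhb, the lactate dehydrogenase subunit that favours lactate use, gave 7306 against 1717 and 7355 against 1880 (2.09 and 1.97), beside a mean of -0.32 for Ldha. Galm, which interconverts sugar anomers, gave 1.17 and 1.21. Bpgm, which diverts a glycolytic intermediate to bisphosphoglycerate, was lower at -1.49 and -1.74.

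Nothing was called at either threshold among the 8 pentose phosphate pathway genes, whose median was 0.07. Of 8 other regulators of glycolytic genes, 6 were above background, and 1 was called higher at 1.4-fold, the Myc partner Max. Over all genes above background, 9.35% were called higher and 9.50% lower at that threshold. Myc itself gave 0.37 and 0.35.

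**Figure D5:**
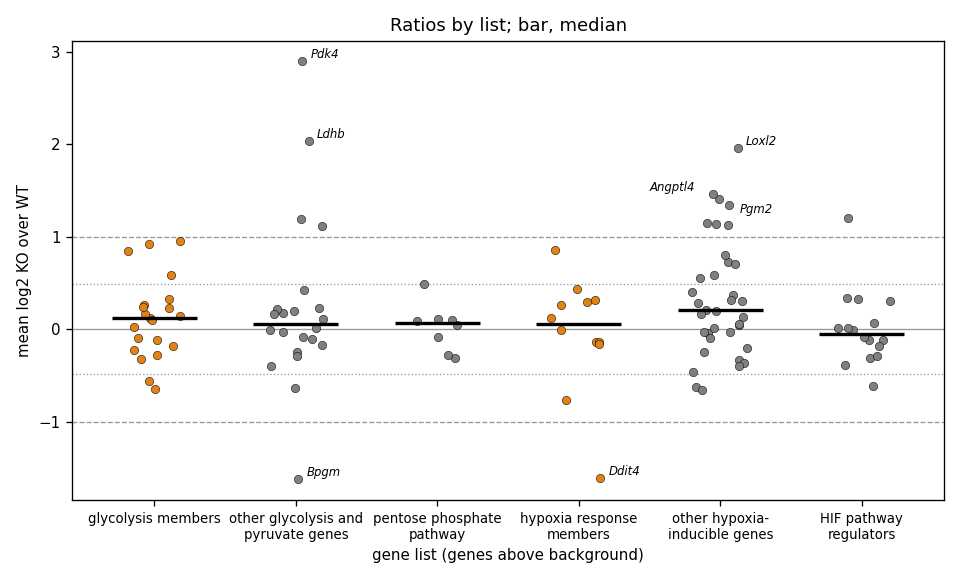
Mean log2 ratio of the RNA labelled KO over the RNA labelled WT (y axis) for the glycolysis and hypoxia response genes (orange) and for related lists (grey), genes above background only; each point is a gene, bars are medians, and dotted and dashed lines mark 1.4-fold and 2-fold. The medians drawn lie between -0.05 and 0.20, and Pdk4, Ldhb and Loxl2 lie above every one of the 33 genes.

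Markers of cell types differed between the RNAs as well. Of 4 adipocyte markers measured, Pparg (2.92 and 2.75) and Fabp4 (mean 0.96) were called higher at 1.4-fold, Fabp4 being above background only in the RNA labelled KO, while the fat cell markers Adipoq and Plin were not above background in either RNA. The summed signal of the 4 was 2472 to 2713 in the RNA labelled KO, of which Pparg gave 2208 to 2435. In the RNA labelled WT the sum was 524 to 543, of which Pparg gave 323 to 328. Of 5 macrophage and blood markers, Lyzs was higher (1290 against 599 and 1279 against 595) while Csf1r and Cd68, both above background, had means of -0.05 and 0.14, and Ptprc and Emr1 were not above background. The summed signals, most of them from Lyzs, were 1578 to 1586 and 896 to 910. Of the 7 fibroblast markers Fn1 was called higher and Col1a1 and Vim lower. Vim was read by a single dim probe (74.8 against 130.1 and 79.2 against 155.6) that passed the background flag in the RNA labelled KO on 1 array only. The 7 had summed signals of 113739 to 117021 and 126529 to 148586. Of 3 neural markers measured 1 was above background, Tubb3, with a mean of -0.11, and of 4 erythroid markers 1 was, Hbb-b1, with a mean of 0.00. Epithelial, endothelial and muscle markers had none above background. The part of these differences in the results above was not tested.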

How the data were processed

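The study's article refers to another deposit for its Lats2 KO MEF arrays, so whether its methods describe these hybridisations is not settled. Two-colour arrays of 1 pair of RNAs were analysed, with the dyes exchanged on the second array. Per the file headers, spots were read with Agilent Feature Extraction 10.5.1.1, and the authors deposited each spot's mean signal and local background as intensity values without a physical unit, with that software's log10 ratio of Cy5 over Cy3 in the same tables. A log2 table deposited by the authors matched the processed signals as KO over WT on both arrays. Coordinates of probes are the files' own, on mm8, and exon positions were not analysed here.

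Background was corrected by normexp in limma 3.58.1 (R 4.3.3) with an offset of 50 (which pulls ratios of dim probes towards 0) and normalised by loess within each array. Control and outlier-flagged spots were left out, which removed 2 of the 58 probes (second probes of Pgk1 and Aldoa). Signals were taken after loess and Aquantile. Spots of a probe were averaged, the second array was turned, and the background flag had to hold in at least a share of 0.5 of a probe's spots. Of the 58 probes, 48 had an accession matched in RefSeq. The number of arrays limits the precision.

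Every one of the 33 genes is reported, and genes of further lists were named where they passed 2-fold, belong to the core HIF machinery, or, as Myc, Max, Crebbp, Eno3 and the cell type markers, were of interest after their values were seen. A gene that meets this rule is not reported here. The genes and lists were chosen with earlier results of these data known. Tables and plots used Python 3.11.15, pandas 2.3.3, numpy 2.4.6 and matplotlib 3.10.9. Alternatives tried were another offset, no background subtraction, median centring, Feature Extraction's ratio, the deposited table, flagged spots kept, the mean over probes, a stricter background filter, single arrays, limma's adjusted p, the methods' t-test and, added after seeing the data, any usable probe.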

Additional observations from a re-analysis of the deposited data

How the results depend on the processing

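The same 4 genes higher and 2 lower at 1.4-fold, and Ddit4 alone at 2-fold, were called with an offset of 10, without background subtraction, with the ratio of Feature Extraction and with the deposited log2 table, and the counts were also the same with flagged spots kept, with the mean over probes and with the stricter background filter. Feature Extraction's ratio, which the deposited table repeats, called more genes over the whole array, 941 higher and 866 lower at 2-fold against 469 and 414, and 2235 and 2358 at 1.4-fold against 1485 and 1509. Median centring in place of loess called 0 lower at 2-fold and 0 higher and 0 lower at 1.4-fold, and gave a glycolysis median of 0.18. Over the whole array it called 250 higher and 138 lower at 2-fold and 537 and 436 at 1.4-fold. The means of the 6 called genes, in which a dye effect shared by both arrays cancels, moved by less than the SD between arrays. On single arrays, leaving out the other, 1 to 2 genes were higher and 1 to 1 lower at 2-fold, 5 to 6 were higher and 3 to 4 lower at 1.4-fold, and the medians were 0.10 to 0.14 for glycolysis and -0.05 to 0.16 for the hypoxia response; the 4 lower genes came without the array with KO in Cy5. Tests of these RNAs, not of the genotypes, were run as alternatives: limma's adjusted p with the fold on the mean called 0 higher and 1 lower at 2-fold and 5 higher and 4 lower at 1.4-fold (3.26%, 3.08%, 11.6% and 11.9% of all genes), and the methods' t-test called 0 lower at 2-fold and 0 higher and 1 lower at 1.4-fold unadjusted (2.25%, 6.07% and 5.88% of all genes), and 0, 0 and 0 after Benjamini-Hochberg adjustment, when 0 genes of the whole array passed. Counting any usable probe, chosen after seeing the data, gave 2 lower at 2-fold through the Pkm2 probe matched to AK083076. Of 329 single-gene ratios recomputed over 10 settings, 289 moved by at most the SD between arrays and 40 by more. Many of the 289 could not move. The stricter background filter keeps the main ratios, and the mean over probes keeps those of the genes with 1 usable probe. Of the 40, each of the 2 single arrays gave 11. None of the called values changed sign, and 9 uncalled values in 7 genes did, the largest being Ldha at -0.32. No paired analysis was possible because the arrays hold a single pair of samples. Signal over background limits Slc2a3, Aldoc and Car9 most; with Feature Extraction's ratio these went from 0.15 to 1.11, from -0.12 to -0.42 and from -0.14 to -0.38.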
